A study of Rattus norvegicus with 12 samples.

Results

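The genes described here are 9 chaperones, folding enzymes and stress genes of the endoplasmic reticulum (ER): Hspa5, Dnajb9, Calr, Canx, Pdia3, Pdia4, P4hb, Ddit3 and Nupr1. They were chosen by symbol, with earlier results of these data known. Of the 8740 probe sets tested, 20 carried 1 of these symbols alone in the platform annotation. There were 5 for Canx, 3 each for Hspa5, Calr and P4hb, 2 for Pdia3 and 1 each for Dnajb9, Pdia4, Ddit3 and Nupr1. They are 9 of the 4736 genes measured. Liver RNA of male Sprague-Dawley rats was pooled, and the pools were hybridised to 12 single-colour Affymetrix arrays, 3 for each of 4 diets. Rats of 150 g had a tube placed in the stomach and were overfed by 17% of calories for 21 days with isocaloric liquid diets, 5% or 70% fat from corn oil (mainly polyunsaturated) or 5% or 70% fat from olive oil (mainly monounsaturated). More fat meant less carbohydrate in these diets, and every group was overfed, so no array shows a liver under normal feeding. How many rats made up a pool is not stated, and p-values therefore measure only the spread from pool to pool, which may be technical.

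Proteins bound for the plasma or the cell membrane fold in the ER, and hepatocytes export large amounts of them. When unfolded proteins build up, the sensors IRE1, PERK and ATF6 start the unfolded protein response, which raises the transcription of chaperones and, through PERK and ATF4, that of stress genes such as Ddit3. The response is widely studied in fatty liver, because dietary fat and carbohydrate load both bear on the hepatocyte ER.

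Many chaperone genes of this response carry the ER stress response element (ERSE), a CCAAT box (NF-Y) 9 bases from a CCACG box (ATF6 or XBP1), and the promoters are shown because they are how these genes are known to be regulated together. RefSeq promoters (GRCr8 build) matched 8 of the 9 genes, all but Pdia3, and the 250 bases before each annotated start were searched on both strands. The ERSE was found in 3 of the 8, Hspa5, Calr and Canx, and in 22 of the 33469 promoters in the table (0.0657%). The ERSE-II, ATTGG and CCACG with 1 base of any kind between them, was in 0 of 8 and in 0.0418% of all promoters, and the XBP1 element TGACGTGG in 0 of 8 and in 0.520%. The amino acid response element core TGATGNAA, a site type of ATF4 with C/EBP factors, was found in Nupr1 alone and in 3.40% of all promoters. The ERSE, the ERSE-II and, on its other strand, the XBP1 element all contain CCACG. On its own CCACG was in 7 of 8 and in 27.2%, and CCAAT on its own in 7 of 8 and in 34.0%. The upstream stretch of Hspa5 is at chr3:38452766-38453015 (plus strand), that of Dnajb9 at chr6:67002052-67002301 (minus strand) and that of Nupr1 at chr1:190645902-190646151 (minus strand). They are the 3 genes whose level passed the test with dietary fat, and capitals mark the ERSE, CCACG and TGATGNAA matches on either strand.
Hspa5: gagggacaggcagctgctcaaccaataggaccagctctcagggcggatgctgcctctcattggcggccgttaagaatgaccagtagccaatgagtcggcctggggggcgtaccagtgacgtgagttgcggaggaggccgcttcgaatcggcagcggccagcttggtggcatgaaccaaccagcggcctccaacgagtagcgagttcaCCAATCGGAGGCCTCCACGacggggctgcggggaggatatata
Dnajb9: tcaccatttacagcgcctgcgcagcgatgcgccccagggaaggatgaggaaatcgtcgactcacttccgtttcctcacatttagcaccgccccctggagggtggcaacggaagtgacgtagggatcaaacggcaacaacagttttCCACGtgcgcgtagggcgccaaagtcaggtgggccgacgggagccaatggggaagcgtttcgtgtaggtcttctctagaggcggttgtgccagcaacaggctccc
Nupr1: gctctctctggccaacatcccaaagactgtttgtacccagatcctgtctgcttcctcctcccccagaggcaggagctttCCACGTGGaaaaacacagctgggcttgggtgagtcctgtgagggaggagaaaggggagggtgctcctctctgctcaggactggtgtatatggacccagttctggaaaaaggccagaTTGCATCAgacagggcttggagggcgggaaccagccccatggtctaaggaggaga
The 3 ERSE matches read as follows on the strand of the motif, with both boxes in capitals, at chr3:38452973-38452991 for Hspa5, chr19:40213135-40213153 for Calr and chr10:35158069-35158087 for Canx. They begin 43, 232 and 230 bases before the start, and that of Calr lies on the opposite strand to the gene.
Hspa5 ERSE: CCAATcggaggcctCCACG
Calr ERSE: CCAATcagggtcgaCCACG
Canx ERSE: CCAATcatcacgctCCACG
A match is a run of letters, and binding was not measured.

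Each value below is a log2 difference from the median of that probe set on the 12 arrays, because the deposited table was centred in this way. They hold no level, so genes cannot be ranked by abundance, and the presence of hepatocyte transcripts cannot be checked. Probe sets of 1 gene were averaged. Differences were tested with limma over all genes with adjustment by Benjamini-Hochberg, a gene was called at an adjusted p under 0.05, and ± after a change is its standard error (SE) from a fit in which all 12 arrays share the spread. In whole liver, fewer cells of a type and less RNA per cell cannot be told apart. The arrays of the oils differed in RNA quality. For the 3'/5' index, the centred 5' values of the actin and GAPDH control probe sets were subtracted from their centred 3' values and averaged. Because of the centring, the index only compares arrays with each other, and a negative index does not mean more 5' than 3' signal. It ran from 0.16 to 1.5 on the 6 corn oil arrays and from -0.43 to -0.23 on the 6 olive oil arrays. The fat levels differed in it with corn oil, with a mean of 1.28 (SD 0.28) at 5% fat and 0.71 (SD 0.48) at 70% fat. With olive oil the means were alike, -0.36 and -0.35. Results are therefore also given with this index as a covariate.

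With corn oil, Hspa5, Dnajb9 and Nupr1 fell at 70% fat, and 0 of the 9 genes rose. The 3 calls compare with 2.53% of all genes called in either direction and 1.01% called lower. Because the 9 genes were chosen with earlier results known, these shares and medians are a description and no independent support. The median change of the 9 genes was -0.51, against -0.0019 over all genes. With olive oil all 9 changes were negative and 0 of 9 passed the test, against 0.549% of all genes called. At an unadjusted p under 0.05 there were 6 of 9 genes with corn oil and 2 of 9 with olive oil, where 18.9% and 8.19% of all genes had such a p. The median change with olive oil was -0.22, against 0.026 over all genes. The test of the difference between the oils called 0 of the 9 genes and 0% of all genes by limma, with 1 of the 9 and 11.9% of all genes at an unadjusted p under 0.05.

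Hspa5 encodes BiP, the HSP70 chaperone of the ER lumen that binds unfolded chains and holds the stress sensors inactive. Its values were 0.51, 0.42 and 0.45 in pools 1 to 3 of 5% corn oil and 0.10, -0.13 and -0.15 in those of 70% corn oil. They were -0.08, -0.10 and 0.29 with 5% olive oil and -0.30, 0.01 and -0.18 with 70% olive oil. The 3 arrays of 5% corn oil were the highest of the 12, and only with corn oil did the arrays of the 2 fat levels not overlap. Hspa5 fell by 0.52 ± 0.12 with corn oil (1.44-fold lower, adjusted p = 0.0389), and its change with olive oil was -0.19 ± 0.12 (adjusted p = 0.718; 95% interval -0.45 to 0.06). The changes with each oil differed by -0.33 (95% interval -0.69 to 0.03, adjusted p = 0.464). Its 3 probe sets changed by -0.37, -0.67 and -0.53 with corn oil, of which the last, S63521_r_at, passed the test over probe sets (adjusted p = 0.0306), in which 2 of the 20 probe sets and 2.11% of all probe sets were called. The change stayed at -0.52 in a fit that had the index as a covariate, with a larger SE of 0.16, and did not pass there (adjusted p = 0.206). The call was kept without pool 1 of 70% corn oil, pool 3 of 5% olive oil or pool 2 of 70% olive oil and was lost without any 1 of the other 9 arrays, at changes from -0.54 to -0.48 (adjusted p up to 0.124).

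Dnajb9 encodes ERdj4, a J-domain partner of BiP that is itself a target of IRE1 and XBP1 signalling. Its values were 0.48, 0.53 and 0.37 with 5% corn oil and -0.41, -0.21 and -1.02 with 70% corn oil. They were 0.34, -0.01 and 0.43 with 5% olive oil and -0.04, 0.01 and -0.05 with 70% olive oil. The arrays of 70% corn oil were the lowest 3 of the 12, and pool 3 was the lowest. With corn oil Dnajb9 changed by -1.01 ± 0.17 (2.01-fold lower, adjusted p = 0.0103), and by -1.25 ± 0.21 with the index as a covariate (adjusted p = 0.0227). Without pool 2 of 5% corn oil the change was -0.97 and missed the threshold (adjusted p = 0.0531), and it passed without each of the other 11 arrays. With olive oil the change was -0.28 ± 0.17 (adjusted p = 0.720). The changes differed by -0.72 (95% interval -1.25 to -0.19) with an adjusted p of 0.330, and Dnajb9 was the only member with an unadjusted p under 0.05 for this difference.

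Nupr1 encodes a small nuclear protein that is induced by many cell stresses. Its values were 0.25, 0.33 and 0.30 with 5% corn oil and -0.70, -1.93 and -0.53 with 70% corn oil. They were 0.27, 0.58 and 0.74 with 5% olive oil and -1.23, -0.25 and -0.52 with 70% olive oil. With both oils every array of 70% fat was below every array of 5% fat. Nupr1 fell by 1.35 ± 0.32 with corn oil (2.55-fold, adjusted p = 0.0458), and the change with olive oil was -1.20 ± 0.32 (2.30-fold lower, adjusted p = 0.186). The change with olive oil passed without pool 2 of 70% corn oil (-1.20, adjusted p = 0.0183), an array that is not part of that comparison. Without pool 1 of 70% olive oil it was smaller and did not pass (-0.92, adjusted p = 0.769). The test over probe sets, in which Nupr1 has 1, gave an adjusted p of 0.0522 with corn oil. The call with corn oil was kept without pools 1 or 3 of 70% corn oil, pool 3 of 5% olive oil or pool 1 of 70% olive oil. It was lost without any 1 of the other 8 arrays, at changes from -1.37 to -0.91 (adjusted p up to 0.136). The low value of pool 2 of 70% corn oil was on the corn oil array with the lowest index, 0.16, and the change was -0.83 with the index as a covariate (adjusted p = 0.344). The part of the index in this result was not tested further. The changes with each oil differed by -0.15 (95% interval -1.13 to 0.83).

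**Figure D1:**
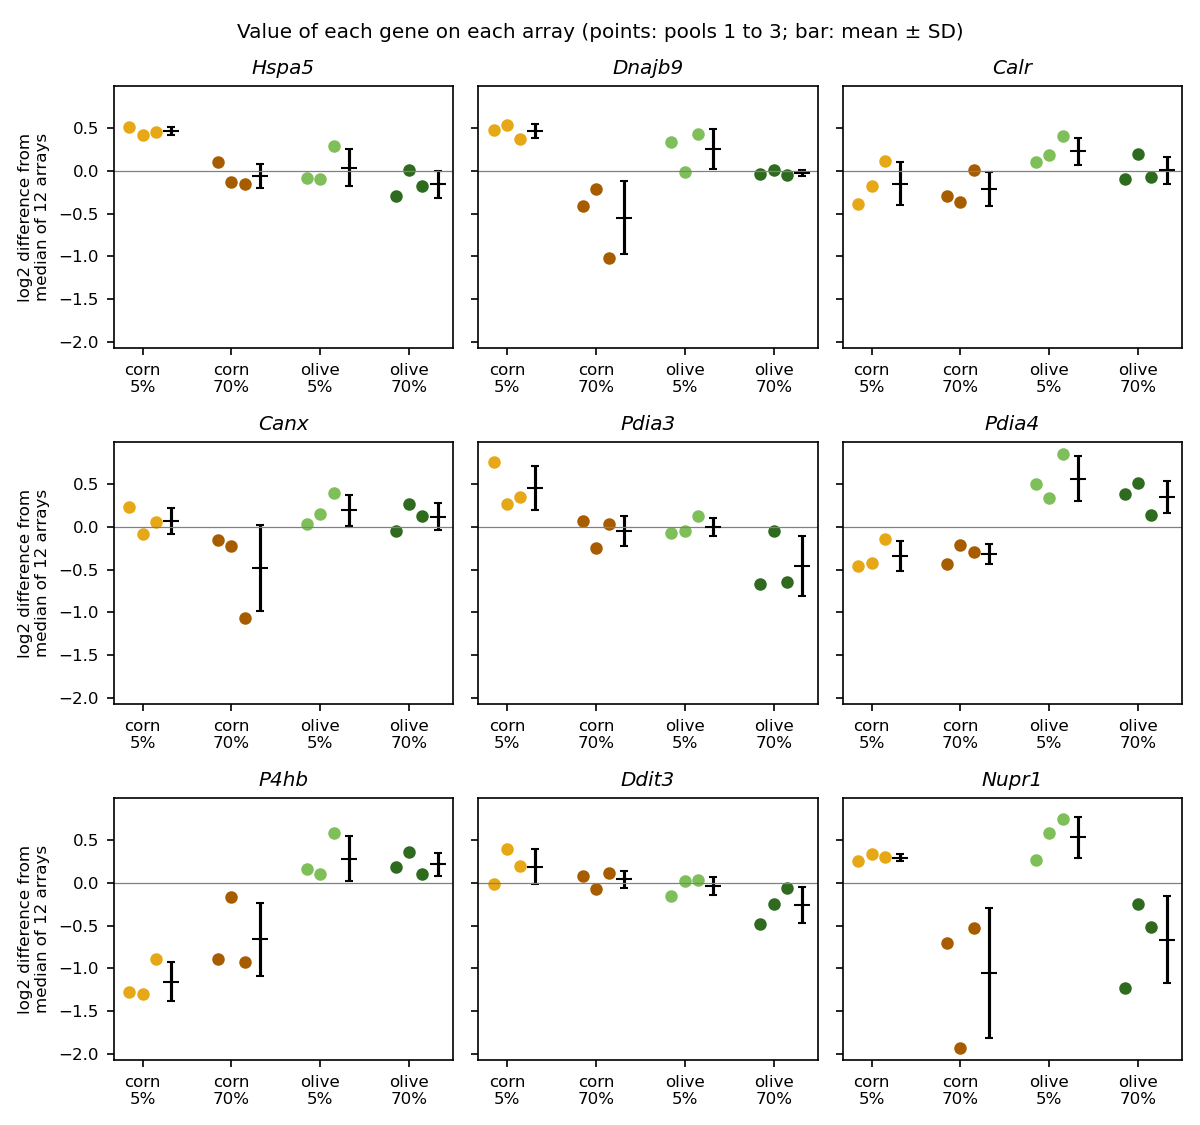
Each panel is a gene, the y axis is the log2 difference from the median of the 12 arrays, points are the 3 pools of a diet and black bars are the mean ± SD (n = 3). Nupr1 was lower on all 70% fat arrays than on the 5% fat arrays of the same oil, and P4hb and Pdia4 were lower on corn oil than on olive oil arrays.

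Over both oils together, as the mean of the 2 fat effects, Nupr1, Dnajb9 and Hspa5 fell, 3 of the 9 genes against 2.17% of all genes called and 1.10% called lower. Nupr1 fell by 1.27 ± 0.22 (adjusted p = 0.00871), Dnajb9 by 0.64 ± 0.12 (adjusted p = 0.0139) and Hspa5 by 0.36 ± 0.083 (adjusted p = 0.0439). The calls of Nupr1 and Dnajb9 were kept without each array in turn. That of Hspa5 was kept without pool 1 of 70% corn oil, pool 2 of 5% olive oil or pool 2 of 70% olive oil and was lost without any 1 of the other 9 (changes from -0.39 to -0.30, adjusted p up to 0.132). With the index as a covariate Dnajb9 passed (-0.76, adjusted p = 0.0111), while Nupr1 (-1.02, adjusted p = 0.0515) and Hspa5 (-0.36, adjusted p = 0.125) did not. This mean uses the same arrays as the comparisons within each oil.

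The calnexin cycle gave no call with fat. Calreticulin (Calr) and calnexin (Canx) are the soluble and the membrane-bound lectin that hold newly made glycoproteins, and Pdia3, or ERp57, is the disulfide isomerase that works with them. Pdia3 had values of 0.75, 0.27 and 0.35 with 5% corn oil and of 0.07, -0.25 and 0.03 with 70% corn oil. It had -0.07, -0.05 and 0.12 with 5% olive oil and -0.67, -0.05 and -0.65 with 70% olive oil. Its arrays did not overlap with corn oil and overlapped with olive oil through pool 2 of 70% fat. The changes were of like size, -0.51 ± 0.17 with corn oil (adjusted p = 0.132) and -0.46 ± 0.17 with olive oil (adjusted p = 0.407), and the mean change over both oils was -0.48 ± 0.12 (adjusted p = 0.0579). Without pool 2 of 70% olive oil that mean was -0.59 and passed (adjusted p = 0.00955), and the probe set X12355_s_at passed in the test over probe sets at -0.49 (adjusted p = 0.0393). It was 1 of 3 of the 20 probe sets called over both oils, against 2.28% of all probe sets, and with olive oil 0 of 20 were called, against 0.435%.

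Canx was at 0.23, -0.08 and 0.05 with 5% corn oil and at -0.16, -0.22 and -1.06 with 70% corn oil, where pool 3 lay apart. With 5% olive oil it was at 0.03, 0.15 and 0.39 and with 70% olive oil at -0.05, 0.27 and 0.13. The change was -0.54 ± 0.20 with corn oil (adjusted p = 0.171) and -0.07 ± 0.20 with olive oil (adjusted p = 0.961). Without pool 3 of 70% corn oil the change with corn oil was -0.25 (adjusted p = 0.326). Its 5 probe sets ran from -0.98 to 0.12 with corn oil, and 4 of them were negative. Calr was at -0.06 ± 0.14 with corn oil (95% interval -0.37 to 0.25) and at -0.22 ± 0.14 with olive oil (95% interval -0.53 to 0.09), with overlapping arrays in both.

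The other isomerases and Ddit3 did not pass with fat either. Pdia4, or ERp72, an isomerase found with BiP, was at 0.03 ± 0.14 with corn oil (95% interval -0.28 to 0.33) and at -0.21 ± 0.14 with olive oil. P4hb is protein disulfide isomerase itself, which also serves as the beta subunit of prolyl 4-hydroxylase and of the microsomal triglyceride transfer protein that loads lipid on apolipoprotein B. Its change was 0.49 ± 0.20 with corn oil (adjusted p = 0.200) and -0.07 ± 0.20 with olive oil, and the first went to -0.00057 with the index as a covariate. Ddit3 encodes CHOP, the transcription factor of the late, pro-apoptotic arm. It had values from -0.02 to 0.39 with 5% corn oil and from -0.07 to 0.11 with 70% corn oil, and from -0.16 to 0.03 and from -0.48 to -0.06 with 5% and 70% olive oil. Its changes were -0.14 (95% interval -0.41 to 0.12) and -0.23 (95% interval -0.49 to 0.04).

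Of the 9 genes, 5 had every array of 70% corn oil below every array of 5% corn oil (Hspa5, Dnajb9, Canx, Pdia3 and Nupr1), as 10.2% of all genes had, and 0 had the reverse, against 8.72% of all genes. With olive oil this held for Nupr1 alone, against 7.28% of all genes.

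**Figure D2:**
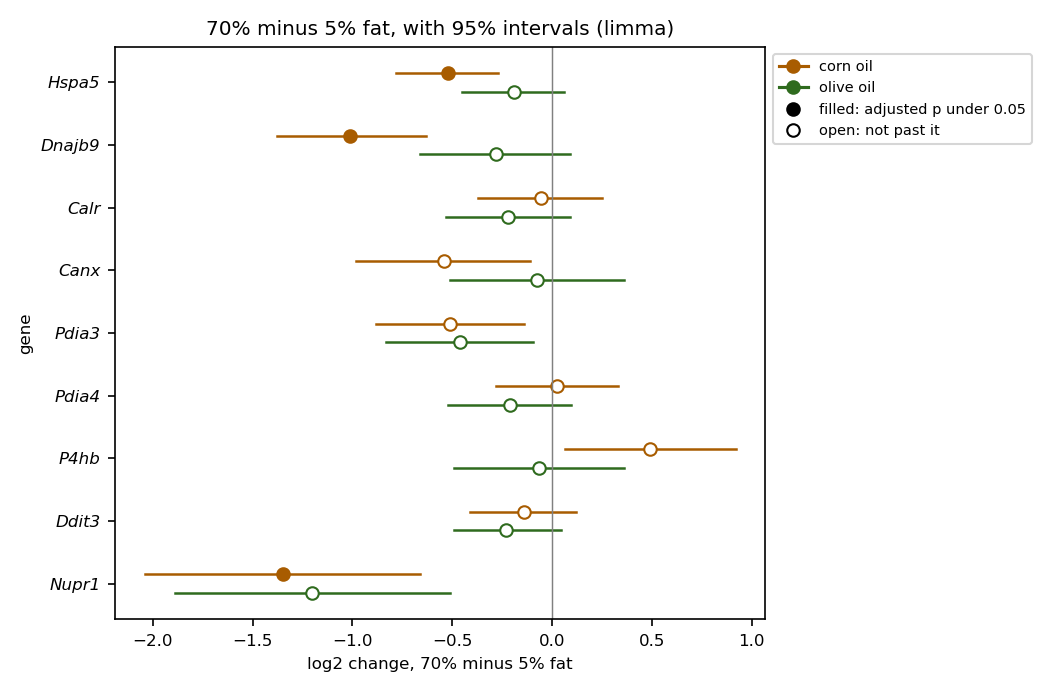
The x axis is the log2 change from 5% to 70% fat and each row is a gene, with the limma estimate as a point and its 95% interval as a line, brown for corn oil and green for olive oil, filled where the adjusted p was under 0.05. Hspa5, Dnajb9 and Nupr1 with corn oil are the 3 filled points, and the intervals of corn and olive oil overlap for each gene.

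Wider lists of ER and stress response genes gave no call with fat, where few of all genes were called either. Of 133 genes listed in 8 groups, 55 were measured. The groups cover ER functions and also stress sensors, transcription factors and targets of ATF4 and CHOP, many of which act outside the ER. By limma 0 of the 55 were called in either direction with corn oil, with olive oil or over both oils. Of all genes 2.53%, 0.549% and 2.17% were called. At an unadjusted p under 0.05 there were 11, 10 and 9 of the 55, where 18.9%, 8.19% and 14.2% of all genes had such a p. Their median change was -0.05 with corn oil and -0.04 with olive oil. The medians of the 8 groups ran from -0.22 to 0.06 with corn oil and from -0.34 to 0.17 with olive oil. Glycoprotein folding (-0.22 and -0.29) and other disulfide isomerases and oxidases (-0.17 and -0.34) were the lowest. With olive oil both were below the median of the 9 genes, -0.22. Among the groups were 4 other chaperones, including the HSP90 of the ER (Hsp90b1, -0.0037 ± 0.15 with corn oil and -0.36 ± 0.15 with olive oil), and 4 other disulfide isomerases and oxidases, including Pdia6 (-0.10 ± 0.15 and -0.37 ± 0.15). Of 8 stress sensors and transcription factors measured, the PERK gene Eif2ak3 was at -0.26 ± 0.10 with corn oil (adjusted p = 0.180) and at 0.05 ± 0.10 with olive oil, and Atf3 at -0.09 ± 0.14 and -0.0090 ± 0.14. Of 13 targets of ATF4 and CHOP, the asparagine synthetase Asns was at -0.01 ± 0.19 and -0.27 ± 0.19, Trib3, an inhibitor of ATF4 and AKT, at 0.21 ± 0.11 and 0.03 ± 0.11, and Ppp1r15a, which restores translation, at -0.17 ± 0.11 and 0.08 ± 0.11. These examples did not pass, and they were picked for their roles after their values had been seen. The 7 genes of glycoprotein folding ran from -0.48 ± 0.15 (Ddost) to 0.04 (Rpn2) with corn oil. With olive oil they ran from -0.38 ± 0.15 (Ddost) to -0.02 (Mogs). Over both oils Ddost was at -0.43 ± 0.11 and did not pass (adjusted p = 0.0648).

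Between the oils, P4hb and Pdia4 were lower with corn than with olive oil at both fat levels, and Hspa5 was higher with corn oil at 5% fat. These 3 of 9 genes at 5% fat compare with 16.9% of all genes called (8.42% higher and 8.49% lower with corn oil), and the 2 of 9 at 70% fat with 6.93% (3.51% lower), on arrays whose index separated the oils completely. The comparisons share their arrays with those of fat: the 5% corn oil arrays that were high in Hspa5 above are the same ones here. With the index as a covariate, 0 of the 9 genes were called at either fat level, and 0 and 1 of all 4736 genes by limma, in a fit where the SE of an oil difference rose, for Pdia4 at 5% fat from 0.14 to 0.36. The genes with an unadjusted p under 0.05 in that fit were others, Dnajb9 (0.93 ± 0.42) and Nupr1 (-1.76 ± 0.74) at 5% fat and Nupr1 (-1.37 ± 0.52) at 70% fat, where 5.85% and 7.69% of all genes had such a p. The arrays of the oils did not overlap for 2 genes higher and 2 lower with corn oil at 5% fat, against 24.3% and 15.6% of all genes, and for 4 lower at 70% fat, against 12.1%. Oil and whatever set the index cannot be told apart on these arrays.

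P4hb depended on the probe set. Probe set M21476_s_at was at -3.41, -3.30 and -2.54 in pools 1 to 3 of 5% corn oil and at -2.15, -0.31 and -2.86 in those of 70% corn oil, and between 0.31 and 0.62 on the 6 olive oil arrays. It was thus 11.50-fold lower with corn oil at 5% fat (-3.52 ± 0.47, adjusted p = 4.96e-04) and 4.57-fold lower at 70% fat (-2.19 ± 0.47, adjusted p = 0.0160). The probe set X02918_at differed by -0.74 ± 0.16 at 5% fat (adjusted p = 0.00772) and by -0.40 ± 0.16 at 70% fat (adjusted p = 0.155). The probe set X02918_g_at differed by -0.035 ± 0.15 (95% interval -0.35 to 0.28) and -0.026 ± 0.15 (95% interval -0.35 to 0.29). The 3 probe sets of 1 gene therefore spanned more than 3 log2 units at 5% fat.

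The index moved with M21476_s_at from array to array. The index was 1.5, 1.36 and 0.97 in pools 1 to 3 of 5% corn oil, and 0.95, 0.16 and 1.03 in those of 70% corn oil, so the corn oil array with the lowest index, pool 2 of 70% fat, was also the one where the probe set came closest to the olive oil arrays. With the index as a covariate the difference of M21476_s_at between the oils was 0.40 ± 0.40 at 5% fat and 0.35 ± 0.28 at 70% fat. The gene value of P4hb, -1.43 ± 0.20 at 5% fat (adjusted p = 6.54e-04) and -0.87 ± 0.20 at 70% fat (adjusted p = 0.0225), went to 0.0030 and 0.054 in that fit. Without M21476_s_at, a choice made after seeing the data, it was -0.39 at 5% fat (adjusted p = 0.0943) and -0.21 at 70% fat (adjusted p = 0.439).

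**Figure D3:**
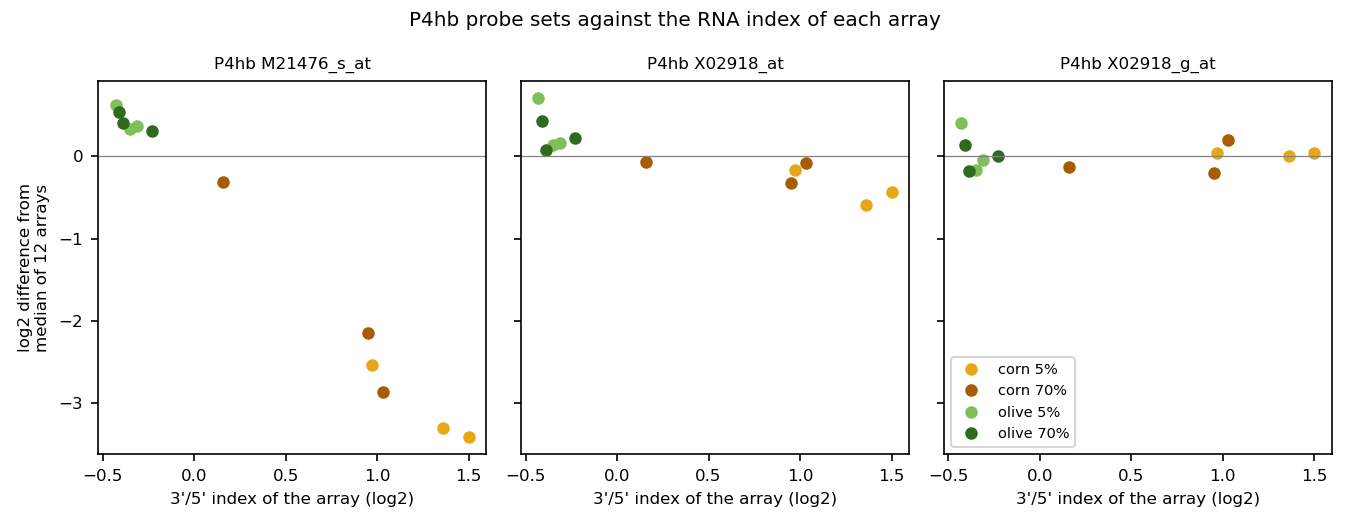
Each panel is a P4hb probe set, the x axis is the 3'/5' index of an array and the y axis the log2 difference from the median of the 12 arrays, with a point per array coloured by diet. M21476_s_at runs from 0.62 on an olive oil array to -3.41 on the corn oil array with the highest index, while X02918_g_at stays near 0.

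Pdia4, with 1 probe set, was at -0.46, -0.42 and -0.14 with 5% corn oil and at 0.50, 0.33 and 0.85 with 5% olive oil. At 70% fat it was at -0.44, -0.21 and -0.29 with corn oil and at 0.38, 0.51 and 0.14 with olive oil. All 6 corn oil arrays were below all 6 olive oil arrays. The difference was -0.90 ± 0.14 at 5% fat (1.86-fold lower with corn oil, adjusted p = 0.00145) and -0.66 ± 0.14 at 70% fat (1.58-fold, adjusted p = 0.0202). It was -0.39 ± 0.36 and -0.33 ± 0.25 with the index as a covariate, without a call. The call at 70% fat was lost without any 1 of pools 1 and 3 of 70% corn oil or pools 1 and 2 of 70% olive oil (differences from -0.67 to -0.57, adjusted p up to 0.0784), and that of P4hb without any 1 of these or pool 3 of 70% olive oil (from -0.93 to -0.74, adjusted p up to 0.0835). At 5% fat both calls were kept without each array in turn.

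Hspa5 was 1.34-fold higher with corn than with olive oil at 5% fat (0.42 ± 0.12, adjusted p = 0.0272), with no overlap of arrays, and its difference at 70% fat was 0.10 ± 0.12 (adjusted p = 0.717). The value at 5% fat was 0.41 with an SE of 0.33 with the index as a covariate. The call was lost without any 1 of the 3 pools of 5% corn oil or pools 1 and 2 of 5% olive oil (differences from 0.36 to 0.44, adjusted p up to 0.112). It was also lost after a second quantile normalization (0.32, adjusted p = 0.126). Of the 3 Hspa5 probe sets, only S63521_r_at passed the test over probe sets at 5% fat (0.54, adjusted p = 0.00459). S63521_i_at was at 0.51 (adjusted p = 0.0867) and M14050_s_at at 0.22 (adjusted p = 0.220). With the index as a covariate M14050_s_at turned to -0.12. Pdia3 was at 0.46 ± 0.17 at 5% fat (adjusted p = 0.0869) and 0.41 ± 0.17 at 70% fat (adjusted p = 0.173), and both passed without pool 2 of 70% olive oil (0.46, adjusted p = 0.0361, and 0.61, adjusted p = 0.0446). Dnajb9 was at 0.21 ± 0.17 at 5% fat and -0.51 ± 0.17 at 70% fat (adjusted p = 0.0948), and the latter passed without pool 2 of 70% corn oil (-0.68, adjusted p = 0.0231).

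Canx and Calr also had probe sets that disagreed between the oils. At 5% fat Canx was at -1.01 ± 0.11 on L18889_at and -0.93 ± 0.24 on rc_AA893328_at, which both passed, and at 0.15, 0.65 and 0.48 on the other 3, which did not. The gene value, -0.13 ± 0.20, is a mean over these opposite differences. At 70% fat the same 2 probe sets passed, at -0.88 ± 0.11 and -1.10 ± 0.24. With the index as a covariate L18889_at was at -0.42 and -0.49 and rc_AA893328_at at 0.39 and -0.25 at the 2 fat levels, without a call, and the gene value at 5% fat turned to 0.57 ± 0.51. Calr at 5% fat was at -0.54 ± 0.14 on D78308_g_at and -0.68 ± 0.18 on X53363cds_s_at, which passed, and at 0.072 ± 0.14 on D78308_at. With the index they were at -0.60, -0.42 and 0.21, without a call. Its gene value was -0.38 ± 0.14 (adjusted p = 0.0877) and passed without pool 3 of 5% corn oil (-0.52, adjusted p = 0.0296). Of the 20 probe sets, 8 passed at 5% fat and 4 at 70% fat, against 19.5% and 8.51% of all probe sets. Ddit3 and Nupr1 did not pass between the oils at either fat level. The difference of Nupr1 was -0.24 ± 0.32 at 5% fat and -0.39 ± 0.32 at 70% fat, and the larger values it had with the index as a covariate, -1.76 and -1.37, did not pass either (adjusted p = 0.839 and 0.554).

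**Figure D4:**
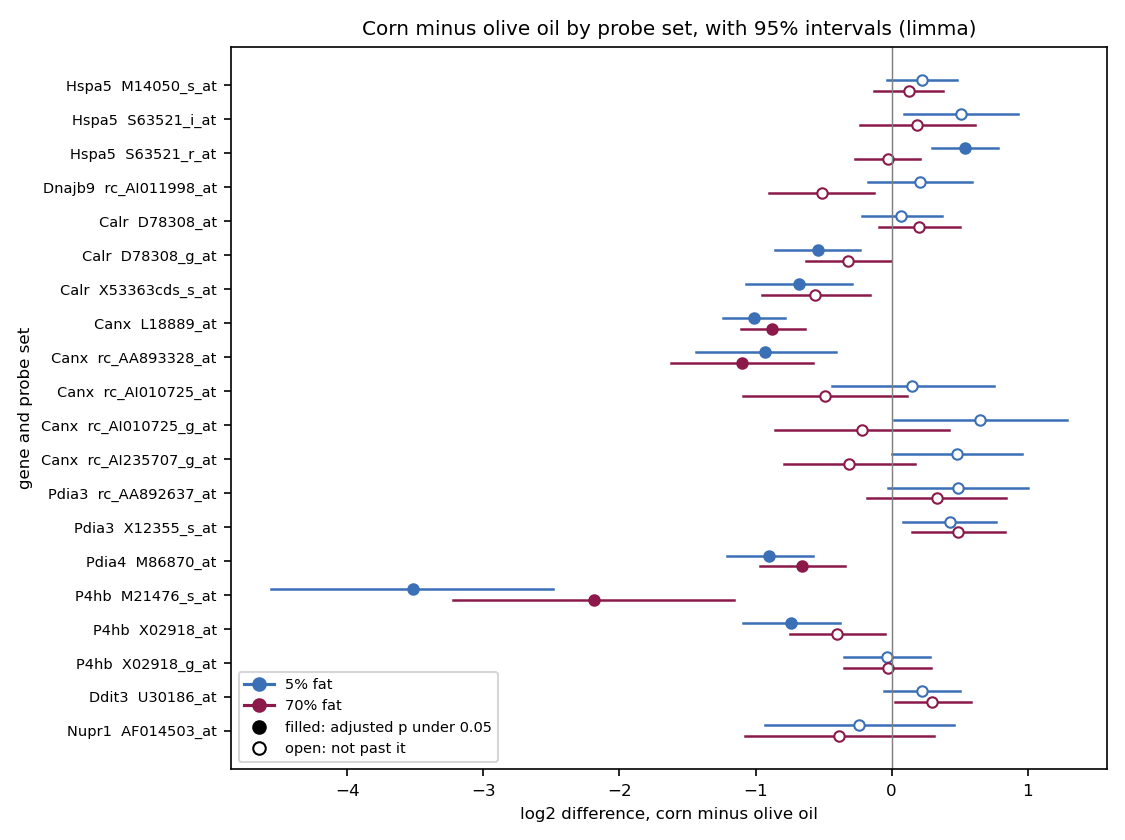
Each row is 1 of the 20 probe sets, the x axis is the log2 difference of corn minus olive oil, and points with lines are limma estimates with 95% intervals, blue at 5% and dark red at 70% fat, filled where the adjusted p was under 0.05. The probe sets of P4hb, Canx and Calr spread widely within a gene, while the 3 of Hspa5 lie between -0.029 and 0.54.

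Of the 55 other genes measured in the 8 groups, 6 were higher and 9 lower with corn oil at 5% fat. At 70% fat 0 were higher and 4 lower. Of all genes, 8.42% were called higher and 8.49% lower at 5% fat. The shares at 70% fat were 6.93% in either direction and 3.51% lower. Genes of protein entry to the ER were among those called, with 6 measured. The translocon channel Sec61a1, the signal peptidase subunit Sec11a and the translocon-associated Ssr3 were lower with corn oil at both fat levels. Sec61a1 differed by -1.44 ± 0.17 at 5% fat and by -0.98 ± 0.17 at 70% fat. The probe sets of Ssr3 were at -0.85 and -0.18 at 5% fat and disagreed in sign at 70% fat (-1.04 and 0.12). Sec62 was higher at 5% fat. Of 7 genes of glycoprotein processing, the oligosaccharyltransferase subunits Rpn2 (-0.71 ± 0.13) and Dad1 were lower at 5% fat, Ddost of the same complex (0.58 ± 0.15) and the glucosidase Mogs (0.30 ± 0.083) were higher, and the cargo receptor Lman1 was lower at 70% fat (-0.40 ± 0.10). Hsp90b1 was lower at 5% fat (-0.87 ± 0.15), with its 3 probe sets between -1.88 and 0.49, and so was Vcp, the ATPase of ER-associated degradation (-0.87 ± 0.16), with its 2 probe sets at -2.10 and 0.37. Of the targets of ATF4 and CHOP, Slc3a2 (-0.48 ± 0.11) and Eif4ebp1 (-0.83 ± 0.20) were lower at 5% fat, and of the sensors and factors Eif2ak1 (0.32 ± 0.085) and Eif2s1 (0.30 ± 0.088) were higher. The calcium-binding protein Calu was higher at 5% fat (0.45 ± 0.12). Some of these differences rested on part of the probe sets of a gene. The probe sets ran from 0.05 to 0.54 for Mogs and from -1.90 to -0.17 for Eif4ebp1 at 5% fat. Those of Lman1 ran from -0.91 to -0.01 at 70% fat. All these arrays differed in the index, with which as a covariate none of the named differences was called by limma (adjusted p of at least 0.636).

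The 9 genes did not share 1 pattern over the 12 arrays. As a description, on arrays that share diets and differ in the index, Pdia3 followed Hspa5 closely (Pearson r = 0.88, n = 12 arrays). Dnajb9 (0.64), Ddit3 (0.63) and Nupr1 (0.59) followed Hspa5 less closely, and Canx (0.34) least of those with a positive r. For Calr (-0.07), Pdia4 (-0.34) and P4hb (-0.56) r was negative. The 5 genes of all 4736 whose values were most like those of Hspa5 were Srgn (0.93), Rabggtb (0.92), Tpp2 (0.92), Taf1 (0.91) and Slfn2 (0.91), and Pdia3 ranked 15.

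Markers of other liver cells were read beside these results, as the mean of each list. With corn oil, 7 measured Kupffer cell markers ran from -0.25 to 0.18 at 5% fat and from -0.18 to 0.11 at 70% fat, and 0 of 7 were called. With olive oil they ran from 0.07 to 0.40 at 5% fat and from -0.38 to -0.11 at 70% fat, with Ctss lower. Of 11 stellate cell markers 5 were higher with corn than with olive oil at 5% fat and 2 at 70% fat, and of 9 hepatocyte markers 4 and 2 were lower, where 8.42% of all genes were called higher and 8.49% lower at 5% fat. At 70% fat 6.93% of all genes were called in either direction and 3.51% lower. Other lists also differed between the oils. At 5% fat 3 of 6 cholangiocyte markers were higher with corn oil and 1 lower, and 2 of 6 endothelial markers higher and 1 lower. Of 7 Kupffer cell markers 2 were lower, of 9 lymphocyte markers 1 was higher and of 8 pancreatic acinar markers 1 was lower. At 70% fat 1 Kupffer cell, 1 endothelial and 1 lymphocyte marker were higher. Red blood cell markers gave 0 calls at either fat level. With the index as a covariate, 0 of all genes were called by limma at 5% fat and 1 at 70% fat. By limma, with fat 0 of 11 stellate cell markers were called with either oil and 1 of 9 hepatocyte markers rose with corn oil (Cyp2e1). Of 6 endothelial markers, 1 fell with corn oil (Kdr). Of all genes, 2.53% were called with fat with corn oil and 0.549% with olive oil. The means of 3 lists separated the fat levels with corn oil as Hspa5, Dnajb9 and Nupr1 did, with 70% fat lower. The 4 red blood cell markers ran from -0.12 to 0.51 at 5% fat and from -0.41 to -0.15 at 70% fat, with a median change of -0.58 with corn oil and -0.31 with olive oil. The 9 lymphocyte markers ran from 0.10 to 0.15 and from 0.00 to 0.04, and the endothelial markers from 0.07 to 0.25 and from -0.05 to 0.03. With olive oil the endothelial mean also separated, from -0.21 to 0.14 at 5% fat and from -0.28 to -0.25 at 70% fat. The mean of the 9 hepatocyte markers separated the other way with corn oil. It ran from -0.37 to -0.21 at 5% fat and from -0.16 to 0.04 at 70% fat. Of the red blood cell and lymphocyte markers 0 were called with fat. The part of cell composition in the results was not tested.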

How the data were processed

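The deposited values are on a log2 scale, with 8799 probe sets, and were made with GCOS and RMA per the submitters' processing notes, with no version given. The base of the log is not written in the table and was taken as 2. Medians of the probe sets lay within 1e-06 of 0 for 100.0% of them, so levels, background and a filter on low values could not be had. Leaving out 59 array controls gave 8740 to test. The platform annotation named 1 gene for 7006 of them, several for 308, and 1426 were unnamed here. Symbols of 6985 were updated through the gene identifier (GRCr8 annotation) and 21 kept. There were 0 columns of other samples. The arrays, of 8 ug of RNA each, had medians from -0.0268 to 0.0622, and the root mean square difference of the most alike arrays was 0.195, so none was taken as a duplicate. The number of arrays limits the precision.

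A linear model in limma 3.58.1 (R 4.3.3) gave each diet a mean, with 8 residual degrees of freedom, and p-values were two-sided. It was fitted on 1 value per gene and separately on probe sets, and was tested on simulated data. The members and gene lists were chosen with earlier results of these data known. Named genes are all 9 members, up to 3 genes past the threshold per list and comparison, and the 5 genes most like Hspa5, and the further genes with values are named for their role. Pool numbers 1 to 3 recur in each diet and were tried as a block. Other alternatives were the median of probe sets, probe sets tested one by one, centring each array, a second quantile normalization, robust moderation, array weights, the arrays of the compared groups only, the 3'/5' index as a covariate, a 1.5-fold minimum, and fits without each array. P4hb without its probe set M21476_s_at was added after seeing the data.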

Additional observations from a re-analysis of the deposited data

How the results depend on the processing

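Of the counts of called genes among the 9, the 3 with corn oil became 1 with each array centred, after a second quantile normalization, with the pool number as a replicate block or with the 3'/5' index, and 0 with the arrays of the compared groups only. The 0 with olive oil became 1 with array weights (Nupr1), and the 3 over both oils 1 with the index. Between the oils, the 3 at 5% fat became 0 with the index and 5 when any probe set could pass. The 2 at 70% fat became 1 with the median of probe sets, with the compared groups only or without M21476_s_at, 4 after quantile normalization and 0 with the index. Without each array in turn these counts ran from 0 to 3, 0 to 1, 2 to 4, 2 to 4 and 0 to 3, and the difference between the fat effects had 0 in every setting run. Of the single genes, Dnajb9 with corn oil kept its call in 7 of 8 settings besides leaving out arrays, Hspa5 and Nupr1 in 2 of 8 each, and over both oils Dnajb9 kept it in 7 of 7. The call of Dnajb9 was lost with the compared groups only. Same-numbered arrays gave 18 pairs whose deviations correlated from -0.16 to 0.23, 4 of them over 0.1. Their median was 0.03, against -0.02 for pairs of unlike number. No strong pairing was seen, and this check cannot exclude a weak one. Calr passed at 5% fat with this replicate block (adjusted p = 0.0471), with the median of probe sets (0.0382) and with array weights (0.0431), and Pdia3 with the compared groups only (0.0498). At 70% fat Dnajb9 (0.0323) and Canx (0.0381) passed after quantile normalization. The causes were not tested.

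Of the 20 probe sets, the 2 called with corn oil became 1 after quantile normalization, with array weights, the index or a 1.5-fold minimum and 0 with the compared groups only. With olive oil 0 became 1 with array weights, and over both oils 3 became 1 with the index. At 5% fat 8 became 13 with array weights and 0 with the index, and at 70% fat 4 became 0 with the index and 2 with the compared groups only. Without each array they ran from 0 to 6, 0 to 1, 1 to 4, 6 to 11 and 2 to 6.

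Over all genes, the 120 called with corn oil became 24 after quantile normalization, 75 with array weights or a 1.5-fold minimum, 23 with the index and 39 with the compared groups only. The 26 with olive oil became 49, 94 and 40 after quantile normalization, with array weights and with the compared groups only, and 17 with robust moderation. The 103 over both oils became 66 with the index and 49 with the fold minimum. The 801 at 5% fat became 1315 with array weights, 0 with the index and 342 with the fold minimum. The 328 at 70% fat became 508 after quantile normalization, 1 with the index, 130 with the compared groups only, 139 with the fold minimum and 552 when any probe set could pass. Without each array they ran from 39 to 219, 11 to 37, 72 to 120, 465 to 1011, 108 to 538 and, for the difference between the fat effects, 0 to 4.

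Signs turned in 32 of the single-gene values. With the index, P4hb went to -0.00057 with corn oil, -0.026 over both oils, 0.0030 at 5% fat and 0.054 at 70% fat, Pdia4 to -0.15 with corn oil, Canx to 0.57 and Pdia3 to -0.025 at 5% fat, and the difference between the fat effects to 0.12 for Pdia3 and 0.39 for Nupr1. Quantile normalization turned Pdia4 with corn oil (-0.081) and the difference between the fat effects of Pdia3 and Nupr1 (0.15 each). Array weights turned Pdia4 with corn oil (-0.0017) and P4hb with olive oil (0.035), the median of probe sets Canx at 5% fat (0.035), and leaving out M21476_s_at P4hb over both oils (-0.0034). Without each array, values crossing 0 ran from -0.18 to 0.074 for Calr and -0.036 to 0.13 for Pdia4 with corn oil, -0.15 to 0.026 for Canx and -0.16 to 0.081 for P4hb with olive oil, and -0.67 to 0.052 for Nupr1 at 70% fat. For the difference between the fat effects they ran from -0.15 to 0.16 for Pdia3, -0.027 to 0.18 for Ddit3 and -0.43 to 0.29 for Nupr1. The fits on compared groups were not run for the mean over both oils and the difference between the fat effects, and the filter on low values could not be applied.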

Other observations

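Chaperones outside the ER were measured on the same arrays. Of 18 measured heat shock proteins of the cytosol and the mitochondrion, 1 fell with corn oil at 70% fat by limma, the small heat shock protein Cryab (-0.52 ± 0.11, adjusted p = 0.0377, and -0.50, adjusted p = 0.206, when the 3'/5' index was a covariate), and 0 of 18 passed with olive oil. Their median change was -0.09 with corn oil and 0.04 with olive oil. Of all genes, 2.53% were called with fat with corn oil and 0.549% with olive oil. Between the oils at 5% fat, Cryab and Hspe1 were higher and St13 (-0.72 ± 0.12), Stip1 (-0.92 ± 0.16) and the mitochondrial Hspa9 (-0.78 ± 0.14) lower with corn oil, where 16.9% of all genes were called. When the index was a covariate St13 was at -0.18, Stip1 at -0.0055 and Hspa9 at 0.039, without a call, and the 3 probe sets of Hspa9 ran from -1.47 to -0.10.

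Secreted plasma proteins, the main clients of the hepatocyte ER, gave 0 calls of 24 with fat with either oil by limma, with median changes of 0.05 with corn oil and -0.05 with olive oil. Of all genes, 2.53% were called with fat with corn oil and 0.549% with olive oil. Between the oils at 5% fat 2 of the 24 were higher and 6 lower with corn oil, against 8.42% and 8.49% of all genes. Among those lower were the coagulation factor F9 (-1.87 ± 0.21) and plasminogen (Plg, -2.54 ± 0.42), on arrays whose index differed. F9 (-0.43) and Plg (-0.03) were not called with the index as a covariate.

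Dnajc1, a membrane-bound J-domain partner of BiP named after its values had been seen, was at -0.39 ± 0.12 with corn oil (adjusted p = 0.111) and at 0.27 ± 0.12 with olive oil (adjusted p = 0.587), and neither passed.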
